A study of Mus musculus with 8 samples.

Results

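Toll-like receptors are the sensors through which intestinal epithelial cells detect microbial products, and 10 genes of their signalling pathway were examined in mouse intestinal organoids given the cytokine RANKL. The 10 genes, of 54532 listed in the count table, were chosen by name as receptors, adaptors and kinases of the pathway, with earlier results of these data known. They are the receptors Tlr1, Tlr2, Tlr3, Tlr4 and Tlr5, the co-receptor Cd14, the adaptors Myd88 and Ticam1, and the kinases Irak1 and Irak2. Organoids are cultures grown from intestinal crypts that hold the epithelium without the immune and stromal cells around it, and here they were small-intestinal mouse organoids kept in Matrigel with EGF, NOGGIN and R-spondin. The 4 control libraries came from organoids without the cytokine and the 4 RANKL libraries from organoids that received it. The study describes its RANKL-stimulated organoids as wild type and its mouse lines as C57BL/6J. The sources used here name no age, dose or duration for these libraries, and they do not say whether the 4 replicates of a group were separate cultures or animals, so p-values measure the spread between these libraries.

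Toll-like receptors each recognise a class of microbial molecule. Tlr1 and Tlr2 bind bacterial lipopeptides, Tlr4 binds lipopolysaccharide that Cd14 hands over to it, Tlr5 binds flagellin and Tlr3 binds double-stranded RNA inside endosomes. All of these receptors except Tlr3 signal through the adaptor Myd88, which recruits the Irak kinases and leads to NF-κB, whereas Tlr3 signals through Ticam1 (also called TRIF), which leads to interferon regulatory factors as well as NF-κB, and Tlr4 can use both adaptors. RANK, the receptor of RANKL, belongs to the tumour necrosis factor receptor family and reaches NF-κB by its own TRAF adaptors.

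Each library was a 3′ library, in which a transcript gives reads from its end, so that counts are not expected to scale with transcript length. Levels are set side by side between genes on that basis, and other differences in capture between genes were not tested. Library totals ran from 583663 to 7807298 counts, and the shallowest library of each group, control replicate 4 and RANKL replicate 1, held 583663 and 613135 counts. The control libraries together held 16214577 counts and the RANKL libraries 5763309, so raw counts of the 2 groups are not on one scale. The summed level of 10 epithelial markers was 7322 to 8456 CPM (counts scaled to a common library size) in the control and 7030 to 7717 CPM in the RANKL libraries, led by Cdh1, Cldn7 and Epcam. Lymphocyte markers summed to at most 1.72 CPM in any library, with Cd3e, Cd3g, Cd4, Cd79a and Ms4a1 among those at 0 in all of them, and 9 fibroblast and endothelial markers (Col3a1, Pecam1 and Col1a1 the highest; Dcn, Cdh5 and Kdr at 0) summed to at most 6.88 CPM. Paneth cell markers, led by Itln1, Defa24 and Defa17, summed to 5204 to 6549 CPM in the control and 5108 to 6107 CPM in the RANKL libraries. Markers of M cells, the antigen-sampling cells that RANKL is known to induce, summed to 261 to 312 CPM without and 2257 to 2579 CPM with RANKL, with Spib, Pglyrp1 and Ccl6 the highest and the mature-cell marker Gp2 at 0. Spib carried most of that rise, and the other 9 markers summed to 256 to 310.2 and to 768 to 819 CPM. In bulk libraries, more cells of a type and more RNA per cell cannot be told apart.

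Among the 10 genes, Tlr3 was the one that passed the test across all genes, and it rose 2.27-fold with RANKL. Counts were present for 9 of the 10 and were high enough to test for 5 of them (Tlr3, Myd88, Ticam1, Irak1 and Irak2). So 1 of 5 tested genes was called higher and 0 were called lower by edgeR at an adjusted p under 0.05, where 25.9% of all 9971 tested genes were called, 13.6% higher and 12.4% lower. Cd14, too low for that test, was higher in every RANKL library than in every control library. Groups without overlap, in either direction, were found for 24.6% of all tested genes. Myd88, Ticam1, Irak1 and Irak2 did not pass, and Tlr1, Tlr2, Tlr4 and Tlr5 had between 0 and 7 counts in all libraries together.

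**Figure D1:**
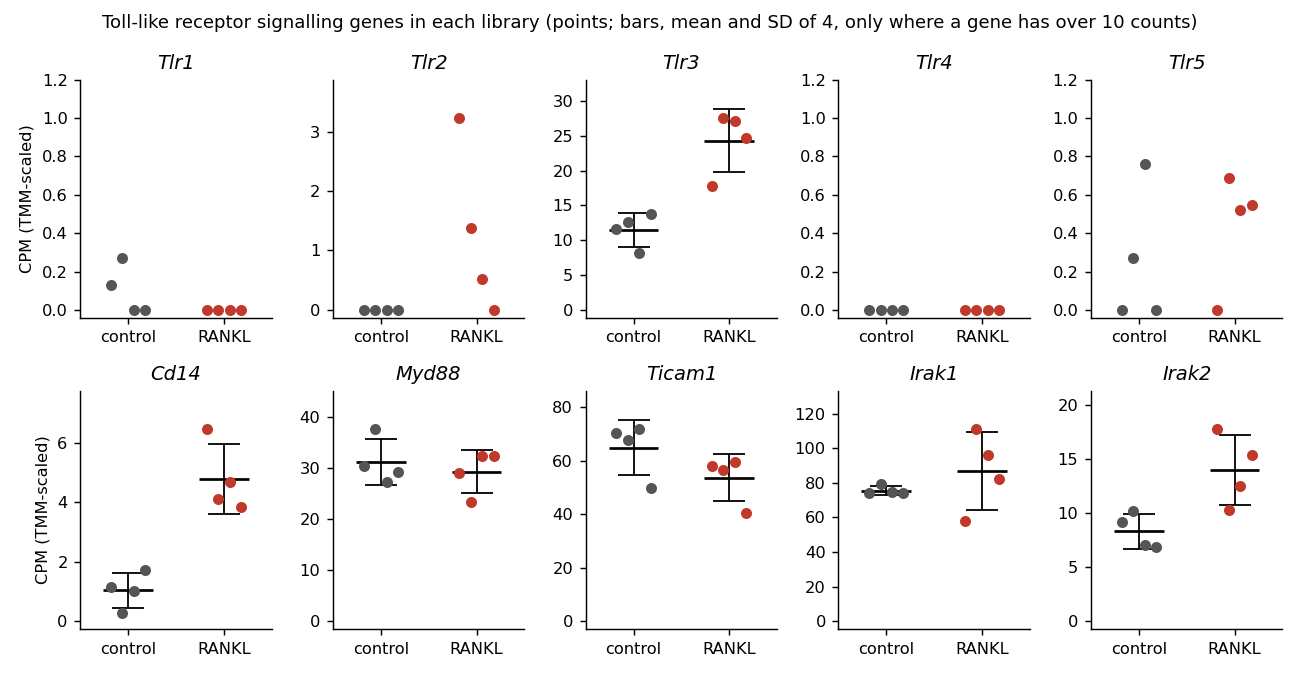
Level of each of the 10 genes in every library, in CPM after TMM scaling on a linear axis that differs between panels, for 4 control (grey) and 4 RANKL (red) libraries; horizontal lines with bars are the mean and SD, drawn for genes with over 10 counts in all. Tlr3, Cd14 and Irak2 show no overlap between the groups, and Tlr4 is at 0 in all 8 libraries. Of all tested genes, which do not include Cd14, 24.6% show no overlap in either direction.

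Tlr3, the receptor for double-stranded RNA, lies at chr8:45395665-45411080 on the minus strand (GRCm38). Control replicates 1 to 4 stood at 11.6, 12.6, 8.11 and 13.8 CPM, from 91, 47, 32 and 8 counts. RANKL replicates 1 to 4 stood at 17.8, 27.5, 27.1 and 24.7 CPM, from 11, 40, 52 and 45 counts. The lowest RANKL library, which is also the shallowest of its group, was above the highest control library. The same lack of overlap, in either direction, was found for 24.6% of all tested genes. The means were 11.5 ± 2.44 CPM without and 24.3 ± 4.52 CPM with RANKL (SD, n = 4 each), and the log2 fold change was 1.18 (SE 0.21, 95% interval 0.75 to 1.62; edgeR adjusted p = 7.7e-05). The exact two-sided permutation test gave p = 0.0286, the smallest that 4 against 4 libraries can give. Tlr3 was called in every fit in which it was tested, but a filter of at least 10 counts in every library left it untested, because control replicate 4 held 8 counts.

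The promoters of 3 genes are shown to set the gene that rose, Tlr3, beside Tlr2, a receptor whose few counts were all in RANKL libraries, and Ticam1, the adaptor of Tlr3. The 3 genes were chosen with these values known. Each run covers 250 bases before to 50 bases after the RefSeq start (GRCm38.p6), 5′ to 3′ on the minus strand of the chromosome, and capitals mark matches to a κB-like pattern, GGGNNNNNCC, on either strand. The windows are chr8:45410331-45410630 for Tlr3, chr3:83841559-83841858 for Tlr2 and chr17:56276718-56277017 for Ticam1. The GENCODE model of Tlr3 begins further upstream than this RefSeq start.

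Tlr3: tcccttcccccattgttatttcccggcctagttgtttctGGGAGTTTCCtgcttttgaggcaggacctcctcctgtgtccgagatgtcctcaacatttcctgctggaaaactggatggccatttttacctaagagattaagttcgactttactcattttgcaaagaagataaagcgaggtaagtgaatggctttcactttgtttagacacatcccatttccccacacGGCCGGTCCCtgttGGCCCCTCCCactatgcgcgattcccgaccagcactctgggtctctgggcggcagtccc

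Tlr2: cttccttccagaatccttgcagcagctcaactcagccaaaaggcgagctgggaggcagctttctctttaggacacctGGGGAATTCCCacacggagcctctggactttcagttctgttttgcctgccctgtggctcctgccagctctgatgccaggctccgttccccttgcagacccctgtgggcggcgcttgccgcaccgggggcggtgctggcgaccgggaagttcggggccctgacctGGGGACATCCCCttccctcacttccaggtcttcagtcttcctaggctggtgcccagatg

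Ticam1: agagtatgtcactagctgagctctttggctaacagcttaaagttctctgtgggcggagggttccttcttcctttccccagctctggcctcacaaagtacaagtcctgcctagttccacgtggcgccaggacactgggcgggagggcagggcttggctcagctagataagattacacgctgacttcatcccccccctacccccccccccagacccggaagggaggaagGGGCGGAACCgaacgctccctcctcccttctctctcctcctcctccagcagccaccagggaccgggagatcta

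The Tlr3 window held 3 matches that did not overlap each other, of which GGGAGTTTCC, at −211 to −202 from the start (base 0), is the one furthest upstream. In the Tlr2 window, 7 matches overlapped in 2 stretches, one around GGGAATTCCC, at −172 to −163, and one around GGGACATCCC at the start. Each of these 2 runs of letters matched on both strands and was counted once per strand. The single match in the Ticam1 window, GGGCGGAACC, overlapped a GC box (GGGCGG), the pattern of Sp1-type factors, of which that window held 3. This κB-like pattern is loose, and 50.8% of the 32851 RefSeq promoter windows of the same length hold it on either strand, so a match is a description of the letters and not a binding site. Promoter windows were found for 8 of the 10 genes. The windows of Irak1, which was not called, held 3 κB-like matches each, and those of Tlr5 and Irak2 held 1 each. Those of Tlr1 and Myd88 held no such match; Myd88 held an interferon-response pattern, GAAAGCGAAA, at −40 to −31, a form of GAAANNGAAA that 3.44% of windows hold. An AP-1 pattern (TGANTCA, in 7.81% of windows) was in none of the 8 genes' windows, and the Spib-type pattern GAGGAAGT (3.20% of windows) was in that of Tlr1.

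The other receptors were at or near 0. Tlr4, the lipopolysaccharide receptor at chr4:66827584-66930284, had 0 counts in all 8 libraries. The exact 95% Poisson upper limit was 0.229 CPM in the pooled control and 0.635 CPM in the pooled RANKL libraries, covering counting error alone. A total of 3 counts over a group would make 0.186 CPM in the control and 0.516 CPM in the RANKL libraries. Tlr1 (chr5:64924679-64933563) had 1 count in control replicate 1, 1 in control replicate 2 and 0 in the other libraries. Tlr5, the flagellin receptor (chr1:182954788-182976044), had 0, 1, 3 and 0 counts in the controls, by replicate number, and 0, 1, 1 and 1 counts with RANKL. The ratio of its pooled levels, RANKL to control, was 2.08 with an exact 95% interval of 0.305 to 12.3, so that a change in either direction was not detectable at this depth.

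Tlr2, which pairs with Tlr1 or Tlr6 to bind lipopeptides (chr3:83836272-83841767), had 0 counts in every control library, whereas RANKL replicates 1 to 4 held 2, 2, 1 and 0 counts. Its 5 counts made 0.861 CPM over the pooled RANKL libraries, 4.62 times the 0.186 CPM that 3 counts would make in the control group, and the exact 95% lower limit of the ratio for counting error was 2.54. RANKL replicate 4 was at 0 like the controls, so the groups overlapped. When edgeR was run without its filter on low counts, Tlr2 was called higher (adjusted p = 0.021), where 5.24% of the 23836 genes then tested were called higher.

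Tlr3 therefore held 326 of the 346 counts (94.2%) given to the 12 Toll-like receptor genes of the count table that were examined, the 5 above and Tlr6, Tlr7, Tlr8, Tlr9, Tlr11, Tlr12 and Tlr13. Counts of 1 to 10 were found for 5 of the 12 and 0 counts for 6 of them, including Tlr7, Tlr8, Tlr9, Tlr11 and Tlr13.

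**Figure D2:**
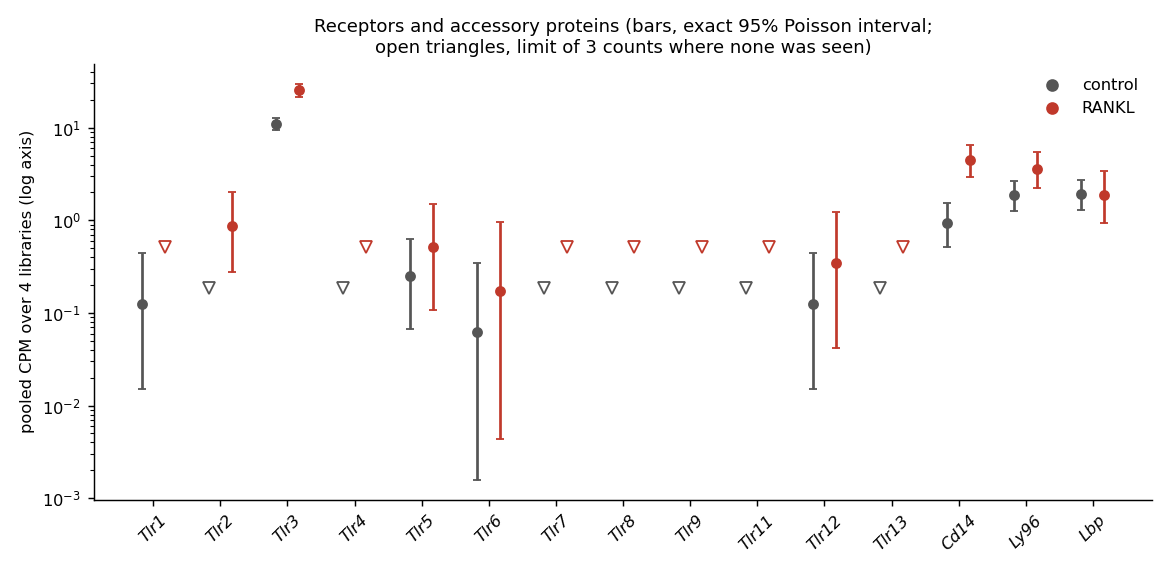
Pooled level of 12 Toll-like receptors, Cd14 and the accessory proteins Ly96 and Lbp over the 4 libraries of each group, in CPM on a log axis; bars are exact 95% Poisson intervals, which cover counting error alone, and open triangles mark the level of 3 counts where a group had 0. Tlr3 stands at 11.0 CPM in control organoids and at 25.5 CPM with RANKL, and every other receptor is below 1 CPM.

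Cd14, a surface protein that binds lipopolysaccharide and passes it to Tlr4, lies at chr18:36725067-36726798. Control replicates 1 to 4 had 9, 1, 4 and 1 counts, or 1.15, 0.268, 1.01 and 1.72 CPM. RANKL replicates 1 to 4 had 4, 6, 9 and 7 counts, or 6.46, 4.13, 4.69 and 3.84 CPM. Every RANKL library was above every control library, the gap running from 1.72 to 3.84 CPM. Of all tested genes, which do not include Cd14, 24.6% had groups without overlap in either direction. The mean was 1.04 ± 0.60 CPM in the control and 4.78 ± 1.17 CPM in the RANKL libraries (SD, n = 4 each; exact two-sided permutation p = 0.0286). Pooled over libraries, the level was 4.81 times that of the control, with an exact 95% interval of 2.45 to 9.76 for counting error. Cd14 lay below the filter of the main fit. It was called higher when edgeR was run without a filter (log2 fold change 2.20, SE 0.57, adjusted p = 0.0022), where 5.24% of the 23836 genes then tested were called higher. It also passed the filter and was called without the 2 shallowest libraries, an alternative added after the data were seen, but the RANKL libraries alone lifted it over that filter, so that this call is no further evidence (2.21, SE 0.53, adjusted p = 0.0033).

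Cd14 is also a marker of macrophages and monocytes. The sum of 12 markers of those cells separated the groups with Aif1 included and did not without it. The sum was 3.44 to 13.0 CPM in the control and 13.7 to 23.5 CPM in the RANKL libraries, without overlap. Of the 12, Aif1 alone was higher in every RANKL library than in every control library, with 6 control counts against 35. Without Aif1 the sum was 3.44 to 12.6 CPM and 7.57 to 17.8 CPM, and the groups overlapped. Csf1r, the marker with the highest mean, had 93 and 30 counts (a pooled ratio of 0.894, 95% interval 0.572 to 1.36). Cd68, a lysosomal protein of macrophages, had 43 and 4 counts (ratio 0.258, interval 0.0672 to 0.710; adjusted p = 0.1 by edgeR without a filter), with overlap between the groups. In mean CPM, Itgam (0.43 to 2.19), Lyz2 (0.36 to 2.02), Mrc1 (0.49 to 1.32) and Fcer1g (0.16 to 1.19) were higher with RANKL. Adgre1 (0.13 to 0) and Cx3cr1 (0.32 to 0.17) were lower, as were Csf1r and Cd68. These added markers each held at most 10 counts per group, and their groups overlapped. The defining markers Tyrobp and Fcgr1 were at 0 in all libraries and the pan-leukocyte gene Ptprc had 1 count in all. The part of such cells, or of cells with M cell markers, in the level of Cd14, Tlr2 or Tlr3 was not tested.

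Myd88, the adaptor shared by most Toll-like receptors and by interleukin 1 receptors (chr9:119335934-119341411), did not pass the test. It was at 30.4, 37.6, 27.4 and 29.2 CPM in the controls, by replicate number, and at 29.1, 23.4, 32.3 and 32.4 CPM with RANKL. The 2 groups lay in the same range, and the highest and the lowest library were control replicate 2 and RANKL replicate 2. The log2 fold change was −0.088 (SE 0.17, edgeR adjusted p = 0.75). Its 95% interval ran from −0.44 to 0.26, and its sign turned when either of those 2 libraries was left out.

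Ticam1, the adaptor through which Tlr3 signals (chr17:56269319-56276786), had a log2 fold change below 0 that did not pass the test. Control replicates 1 to 4 were at 70.5, 67.6, 71.7 and 49.9 CPM and RANKL replicates 1 to 4 at 58.1, 56.4, 59.5 and 40.6 CPM. Control replicate 4, the shallowest library, lay inside the RANKL range and the other 3 controls above it. The log2 fold change was −0.35 (SE 0.14, 95% interval −0.64 to −0.06; edgeR adjusted p = 0.066), and single libraries moved it both ways. Without control replicate 4 it was −0.40 with an adjusted p of 0.035, without RANKL replicate 4, the lowest library, it was −0.22 with an adjusted p of 0.33, and over all alternatives edgeR, DESeq2 or limma gave adjusted p-values from 0.035 to 0.33.

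Irak1, a kinase recruited by Myd88 (chrX:74013914-74023918), had the highest level of the 10 genes in both groups. Its controls lay close together, at 74.1, 79.2, 74.8 and 73.9 CPM. RANKL replicates 1 to 4 were spread more widely, at 58.1, 111, 96.0 and 82.4 CPM, with the shallowest library below all controls and the other 3 above them. The log2 fold change of 0.24 (SE 0.13, 95% interval −0.03 to 0.52) did not pass (edgeR adjusted p = 0.19). It was 0.12 without RANKL replicate 2 (adjusted p = 0.61) and 0.34 without RANKL replicate 1 (adjusted p = 0.055).

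Irak2, a relative of Irak1 that sustains signalling after Irak1 is used up (chr6:113638467-113695026), was at 9.17, 10.2, 7.10 and 6.88 CPM in the controls, by replicate number. With RANKL it was at 17.8, 10.3, 12.5 and 15.4 CPM. The groups did not overlap, although RANKL replicate 2 lay just above control replicate 2. The means were 8.33 ± 1.61 and 14.0 ± 3.25 CPM (SD, n = 4 each; exact two-sided permutation p = 0.0286), against 24.6% of all tested genes whose groups did not overlap. With a log2 fold change of 0.63 (SE 0.25, 95% interval 0.11 to 1.15), Irak2 did not pass after adjustment over all genes (edgeR adjusted p = 0.065).

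The order of the levels was led by the kinase and the adaptors. In control organoids Irak1 was highest, followed by Ticam1, Myd88, Tlr3 and Irak2, and libraries of neighbouring genes overlapped between Tlr3 and Irak2 alone among these 5. In RANKL organoids the order was the same, but Irak1 overlapped Ticam1, Myd88 overlapped Tlr3, and Tlr3 overlapped Irak2. Cd14 came next in both groups, apart from Irak2 above it in both and from Tlr2 below it with RANKL, and it overlapped Tlr5 in the control.

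To ask whether a receptor and its adaptor, or related members, changed by different amounts, the log2 ratio of their CPM (each plus 0.5) was compared within libraries. Both genes of the pair could be tested in 3 of 6 pairs. The ratio of Tlr3 to Ticam1 was −2.56, −2.38, −3.07 and −1.82 in the controls, by replicate number, and −1.68, −1.02, −1.12 and −0.71 with RANKL. The groups did not overlap, and the mean difference was 1.32 on the log2 scale (exact two-sided permutation p = 0.0286, Benjamini-Hochberg adjusted p = 0.0857 over the 3 pairs, the lowest that 1 separated pair of 3 can reach with 4 against 4 libraries). The ratio of Irak2 to Irak1 differed by 0.54 (exact permutation p = 0.2286, adjusted p = 0.3429) and that of Ticam1 to Myd88 by −0.19 (exact permutation p = 0.5429, adjusted p = 0.5429), with overlap in both. Single libraries moved both, the first from 0.24 without RANKL replicate 1 to 0.80 without RANKL replicate 2, and the second to −0.0071 without RANKL replicate 4.

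**Figure D3:**
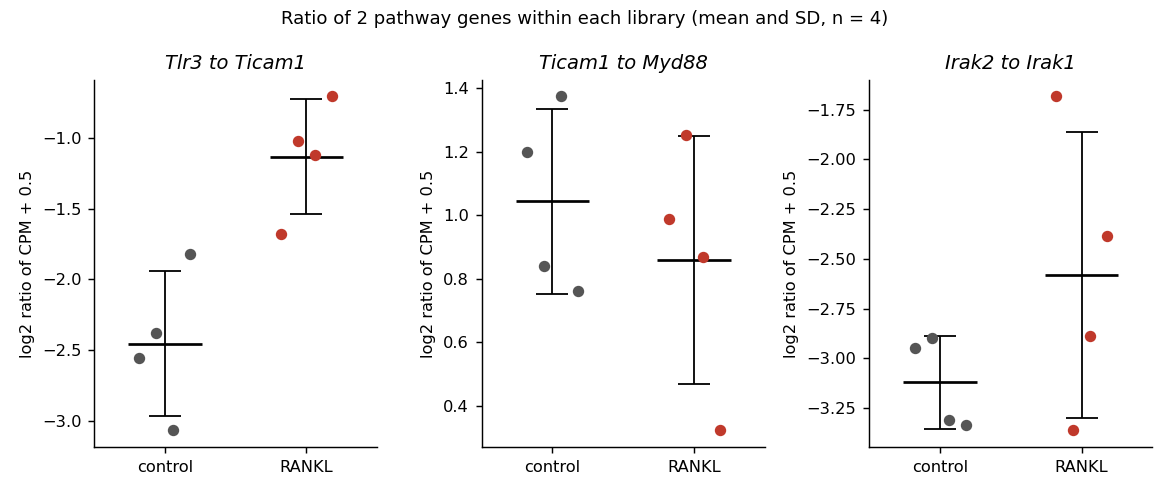
Log2 ratio of 2 pathway genes within each library (CPM plus 0.5), for 4 control (grey) and 4 RANKL (red) libraries, with the mean and SD; the vertical axes differ and do not start at 0. The ratio of Tlr3 to Ticam1 is −1.68 or above in the RANKL libraries and −1.82 or below in the controls, and the groups overlap in the other pairs.

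Around these genes, 80 further genes of the pathway were listed, of which 37 could be tested, 16 were higher and 3 were lower with RANKL, beside 13.6% higher and 12.4% lower among all tested genes. Their lists differed in how many members passed. Of 15 other receptors and accessory proteins, 3 were tested and 0 were called, with Hsp90b1, the chaperone that folds Toll-like receptors, the highest at 735 ± 65.2 CPM in the control and 749 ± 30.5 CPM in the RANKL libraries (log2 fold change 0.026, edgeR adjusted p = 0.87). Of 5 interleukin 1 family receptors that use Myd88, none had enough counts to test. Il18r1 held 16 control counts against 4 with RANKL, from groups of unequal depth. The ratio of its pooled levels, RANKL to control, was 0.693, with an exact interval of 0.169 to 2.15 for counting error. A change of Il18r1 in either direction was therefore not detectable (adjusted p = 0.76 by edgeR without a filter).

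Of 17 other adaptors and kinases near the receptors, 13 were tested, 3 were higher and 1 was lower, with a median log2 fold change of 0.20 against 0.00017 over all genes. That is 4 called of 13, a share near the 25.9% called over all genes. Traf3, an adaptor that links Ticam1 to the kinases of the interferon branch and also restrains non-canonical NF-κB, rose from 30.4 ± 4.59 to 64.7 ± 7.52 CPM (log2 fold change 1.06, SE 0.15, edgeR adjusted p = 2e-06). Ikbke, a kinase that phosphorylates interferon regulatory factors, rose from 21.6 ± 4.34 to 44.8 ± 8.71 CPM (1.06, SE 0.18, adjusted p = 3.3e-05). Peli1, a ubiquitin ligase that acts on Irak proteins, rose by 0.53 (adjusted p = 0.0011). Tab2, which tethers the kinase Tak1 to ubiquitin chains and had 108 ± 3.34 CPM in the control, fell by 0.34 on the log2 scale (adjusted p = 0.027).

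Of 15 inhibitors of the pathway, 8 were tested, 4 were higher and 1 was lower (median log2 fold change 0.29), beside the same 13.6% and 12.4% over all genes. Tnip1, which binds the ubiquitin editor A20, rose from 93.8 ± 10.2 to 299.9 ± 4.24 CPM (log2 fold change 1.68, SE 0.11, edgeR adjusted p = 1e-13). Cyld, a deubiquitinase that restrains NF-κB, rose by 0.86 on that scale (adjusted p = 2.4e-06), while Tollip, which binds the receptor complex, and Usp4, another deubiquitinase, rose by 0.50 and 0.33 (adjusted p = 0.033 and 0.048). Tollip libraries overlapped between the groups. Zfp36, an RNA-binding protein that shortens the life of cytokine transcripts, fell by 0.51 (adjusted p = 0.0042), from 120 ± 26.3 to 88.0 ± 9.12 CPM, also with overlap.

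Interferon regulatory factors, a family to which the Ticam1 branch leads, were called in both directions. Of 5 listed, 4 were tested, 2 were higher and 1 was lower, too few to set against the 25.9% called over all genes. Irf1 rose from 44.9 ± 1.48 to 138 ± 7.60 CPM (log2 fold change 1.59, SE 0.11, edgeR adjusted p = 2.2e-12) and Irf7 from 3.63 ± 1.33 to 7.83 ± 2.26 CPM (0.93, SE 0.32, adjusted p = 0.028). Irf8, a factor best known from myeloid and B cells, fell from 103 ± 7.36 to 40.9 ± 5.23 CPM (−1.35, SE 0.13, adjusted p = 1.9e-09). Irf3, the remaining tested gene and outside the rule for named genes, was not called (log2 fold change 0.12, SE 0.16, edgeR adjusted p = 0.63).

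Genes that Toll-like receptors can induce held the largest median of these lists, 3.24 on the log2 scale. Of 23 listed, 9 were tested, 7 were higher and 0 were lower, against 13.6% and 12.4% over all genes; most of the 7 are NF-κB targets that other receptors, RANK included, also induce. Nfkbia, the inhibitor that NF-κB induces to close its own loop, was at 260 ± 47.4 CPM without and 2436 ± 55.2 CPM with RANKL (log2 fold change 3.24, SE 0.12, edgeR adjusted p = 8.8e-20). The subunits Relb and Nfkb2 rose by 3.32 and 3.48 (adjusted p = 2.2e-20 and 6.5e-16), and Rel and Nfkb1 by 1.10 and 0.77 (adjusted p = 6.1e-05 and 0.00025). Reg3g, an antibacterial lectin, rose from 86.0 ± 8.01 to 1015 ± 16.4 CPM (3.55, SE 0.11, adjusted p = 9.3e-22). The seventh was Tnf, which had a mean under 5 CPM. Nfkbiz (log2 fold change 0.019, edgeR adjusted p = 0.96) and Reg3b (0.10, adjusted p = 0.67), outside the rule for named genes, were tested and not called. Of the 23 listed, 6 had 0 counts in all libraries: Il6, Il12b, Ptgs2, Saa1, Saa2 and Ifnb1.

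**Figure D4:**
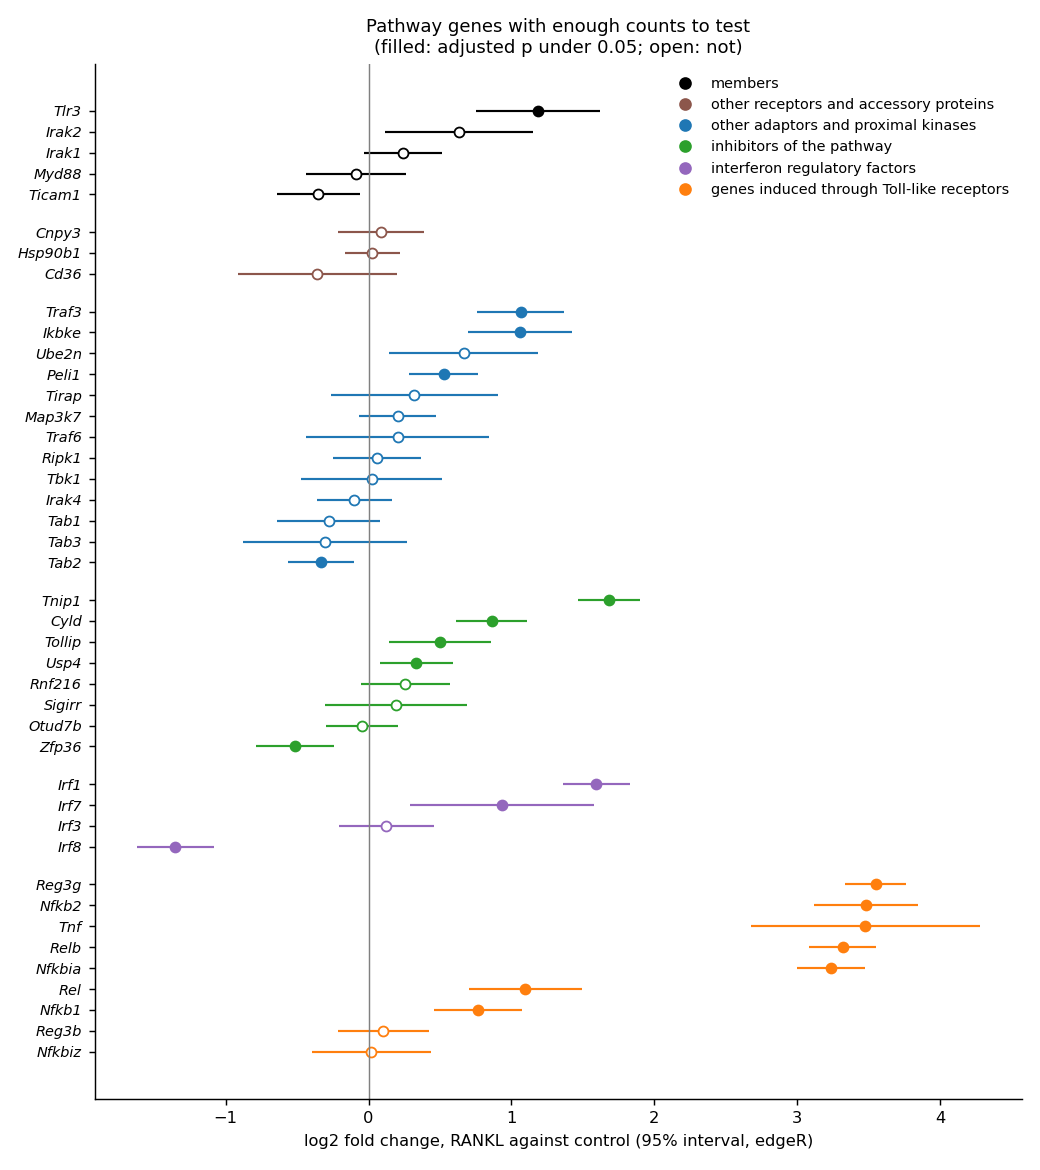
Log2 fold change of RANKL against control with its 95% interval (edgeR, horizontal axis) for the 5 tested genes of the set, named members in the key, and the 37 tested genes of 5 further lists; filled points passed an adjusted p of 0.05 and open points did not. Among the 5, Tlr3 is the filled point, and 7 of 9 induced genes are filled on the right.

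The tested genes whose levels followed Tlr3 most closely over the 8 libraries, by Pearson's r of log2 (CPM + 0.5) among 9929 tested genes with a mean of at least 5 CPM, were 5330406M23Rik (r = 0.986), Pdcl (0.984), Fam129b (0.977), Lrrc8b (0.975) and Cep162 (0.971). All 5 were themselves called higher with RANKL (log2 fold change 0.50 to 1.90), so that these r values describe the shared step between the groups, over libraries that also share their depth.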

How the data were processed

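Gene expression was measured by 3′ mRNA sequencing (QuantSeq forward kit, single reads of 50 bases) in 4 control and 4 RANKL libraries, grouped and numbered by their labels. The authors trimmed the reads, removed ribosomal and other abundant sequence, aligned the rest to the mouse genome (mm10) with STAR and counted them per gene, strand-specifically, with featureCounts. The deposited values are raw counts per gene, without normalization. Of 54532 gene identifiers, 54409 matched a symbol. Molecular identifiers are not mentioned in the sources used here, so intervals cover counting error only.

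Counts were scaled with TMM factors to CPM and tested with edgeR 4.0.16 (quasi-likelihood, its low-count filter, Benjamini-Hochberg over 9971 genes, threshold 0.05) in R 4.3.3. The call was made for 2587 genes (25.9%). Low genes were pooled within groups and compared by exact intervals of the ratio (95%), with a floor of 3 counts per group. Exact two-sided permutation tests ran over 70 assignments and their p-values for single genes are unadjusted. The alternatives were DESeq2 1.42.0 (size factors; Wald test), limma-voom (limma 3.58.1), library totals, other filters, thresholds and pseudocounts, a block by replicate number, leaving out each library and, added after the data were seen, the 2 shallowest libraries left out. The labels do not say whether libraries with the same replicate number belong together, and the main fit did not pair them. The 12 pairs of libraries within groups differed beyond sampling noise (chi-square per degree of freedom 1.29 to 13.1, the highest between control replicates 1 and 3). Each library was counted as 1 replicate, but such a spread cannot show whether they were separate cultures or animals. The steps were tested on simulated data.

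Members and lists were chosen with earlier results of these data known. Il17rb, entered by mistake among the receptors that use Myd88, was taken off that list after values were seen. Named were all 10 members, the called genes of each other list with a mean of at least 5 CPM and its highest gene, of the marker lists those at 0 and the 3 highest, and the 5 genes closest to Tlr3. Beyond that rule, all 12 macrophage and monocyte markers were named. An item that the rule names is not reported here. Gene positions are those of GENCODE M21 and promoters those of RefSeq, both on GRCm38. A promoter of Tlr4 or Cd14 was not used here.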

Additional observations from a re-analysis of the deposited data

Results flagged for a closer look

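In groups of 4 libraries, 56 groups of values were examined for a library far from the other 3, and 3 were found, where about 2.8 arise by chance. Irak1 in control replicate 2 was at 79.16 CPM, with the next library at 74.76 CPM. Ticam1 in RANKL replicate 4 was at 40.64 CPM, with the next library at 56.44 CPM. Nfkbia in control replicate 3 was at 189.1 CPM, with the next library at 275.2 CPM.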

How the results depend on the processing

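Tlr3 kept its direction and its call in each fit that tested it, with a log2 fold change of 1.05 to 1.26 when a library was left out and adjusted p-values (edgeR, DESeq2 or limma) from 7.5e-06 to 0.00096 over all alternatives. The number of the 10 genes called was 1; it was 3 without a filter on low counts (Tlr3, Cd14 and Tlr2), 0 with at least 10 counts in every library, where Tlr3 and Irak2 were not tested, 1 to 2 when a library was left out, and 3 without the 2 shallowest libraries (Tlr3, Ticam1 and Cd14, the last of which passed that filter through its RANKL libraries alone). Ticam1 passed the threshold without control replicate 4 (−0.40, adjusted p = 0.035) and without the 2 shallowest libraries (−0.42, adjusted p = 0.044); its range with each library left out was −0.42 to −0.22. Myd88 ranged from −0.16 to 0.026 and turned sign without control replicate 2 (0.026, adjusted p = 0.94) and without RANKL replicate 2 (0.014, adjusted p = 0.97); the cause was not tested. Over all genes, 2587 were called at 0.05 and 1636 at 0.01. For libraries with the same number, deviations from the group means had r = −0.0074, −0.0301, 0.0941 and 0.0336 for numbers 1 to 4. Of the 4 numbers, 2 matched their own number best. In libraries this shallow, such values cannot settle whether libraries of the same number were paired. With the replicate block 2610 genes were called, and the block changed no call among the 10 genes. Without a filter the median log2 fold change over all genes was −0.11, against 0.00017 in the main fit. Depth limits the 5 genes below the filter: in the shallowest library of each group, 583663 and 613135 counts in all, 1 count is worth more than the pooled control level of Cd14.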

Other observations

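A few low pathway genes outside the rule for named genes are given here as values, chosen after their values were seen, with the edgeR fit without a filter on low counts, in which 5.24% of 23836 genes were called higher. Cxcl10, a chemokine of the interferon branch, had 1 control count against 39 with RANKL, a pooled ratio of 108 with an exact 95% counting interval of 18.3 to 4379 (adjusted p = 1.4e-12), and every RANKL library lay above every control. Irf5, an interferon regulatory factor downstream of Myd88, had 16 and 41 counts (ratio 7.10, interval 3.90 to 13.6; adjusted p = 1.6e-06), without overlap. Saa3, an acute-phase protein, had 4 and 19 counts (ratio 13.2, interval 4.38 to 53.2; adjusted p = 0.00042), also without overlap. Il1rap, the shared chain of interleukin 1 receptors that signal through Myd88, went the other way, with 23 control counts against 0 with RANKL, 2.77-fold above the level of 3 counts over the RANKL group, with an exact 95% lower limit of 2.07-fold for counting error (adjusted p = 0.017). Control replicate 4 also had 0 counts of Il1rap, so the groups overlapped. Ly96, the partner of Tlr4, had 30 and 21 counts (ratio 1.94, interval 1.06 to 3.50; adjusted p = 0.23).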
